A study of Mus musculus with 4 samples.

Results

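The vacuolar proton pump (V-ATPase) was described in the mammary epithelium of mice through 10 of the 27998 genes listed in the count tables. The 10 genes were Atp6v1b1, Atp6v1b2, Atp6v1a, Atp6v1c1, Atp6v1e1, Atp6v1h, Atp6v0b, Atp6v0c, Atp6v0d1 and Atp6ap1, taken by symbol. Atp6v1b1 was chosen by its measured counts, because earlier results of these data showed it restricted to luminal progenitor cells, and the other 9 were taken to see whether the whole pump followed. The values of Atp6v1b1 by cell class are therefore a description with no test. Gene expression was measured by droplet 3′ RNA sequencing of sorted total epithelium from untreated FVB/NJ mice, 5 weeks of age (puberty) or 10 weeks of age (adult) in the estrus or the diestrus phase of the ovarian cycle. Glands of mice in the same phase were pooled, so each adult library is 1 pool and animals cannot be told apart. No stage had a replicate library.

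The V-ATPase is a rotary enzyme that spends ATP to move protons across a membrane. Its soluble V1 part holds alternating A and B subunits, which bind ATP, around a central stalk. Its V0 part holds the ring of proton-carrying subunits in the membrane. Nearly every cell uses it to acidify lysosomes and endosomes. Acid-secreting cells, such as the intercalated cells of the kidney, also place it on the cell surface. Several subunits are encoded by more than 1 gene. The B subunit can come from Atp6v1b2, which is used widely, or from Atp6v1b1, which is best known from intercalated cells and the inner ear.

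Atp6v1b1 lies at chr6:83742990-83758855 on the plus strand of GRCm38, and no other annotated gene shared exon bases with it. The RefSeq promoter table (GRCm38.p6, 250 bases before to 50 after a start) held 7 of the 10 genes. Atp6v1b2, Atp6v1c1 and Atp6v1h had no entry. Promoters were searched on both strands for the E-box CACGTG, for the CLEAR core TCACGTG found before many lysosomal genes, for the forkhead letters TGTTTAC and for the GC box GGGCGG. Each CLEAR core contains an E-box. The forkhead letters were in 3.65% of 32851 promoters and, among the 7 genes, in that of Atp6v1b1, with the first base 98 bases before the start. The CLEAR core was in 3.77% of all promoters (E-box 7.15%) and in those of Atp6v0b, Atp6v0d1 and Atp6v1a. The GC box was in 35.7% of all promoters and in those of 4 of the 7 genes. The 4 promoters below are that of the B1 gene and those of the 3 members with a CLEAR core. Matches are in capitals, and each is read 5′ to 3′ along its gene. The promoters of Atp6v1e1, Atp6v0c and Atp6ap1, not shown, lacked the CLEAR core as that of Atp6v1b1 did. A match is a description of the letters and does not mark a used site.
Atp6v1b1, chr6:83742767-83743066, plus strand: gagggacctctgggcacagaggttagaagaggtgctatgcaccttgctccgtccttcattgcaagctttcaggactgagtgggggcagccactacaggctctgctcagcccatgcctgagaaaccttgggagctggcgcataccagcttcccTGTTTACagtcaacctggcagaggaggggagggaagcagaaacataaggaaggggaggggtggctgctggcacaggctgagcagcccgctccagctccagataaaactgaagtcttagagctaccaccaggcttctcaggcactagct
Atp6v1a, chr16:44139210-44139509, minus strand: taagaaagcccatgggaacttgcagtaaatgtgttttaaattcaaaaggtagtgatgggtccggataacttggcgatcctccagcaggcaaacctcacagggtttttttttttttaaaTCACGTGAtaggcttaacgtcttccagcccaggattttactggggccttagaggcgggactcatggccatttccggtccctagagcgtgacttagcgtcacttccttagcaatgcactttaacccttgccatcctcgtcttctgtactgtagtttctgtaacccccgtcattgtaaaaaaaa
Atp6v0b, chr4:117887280-117887579, minus strand: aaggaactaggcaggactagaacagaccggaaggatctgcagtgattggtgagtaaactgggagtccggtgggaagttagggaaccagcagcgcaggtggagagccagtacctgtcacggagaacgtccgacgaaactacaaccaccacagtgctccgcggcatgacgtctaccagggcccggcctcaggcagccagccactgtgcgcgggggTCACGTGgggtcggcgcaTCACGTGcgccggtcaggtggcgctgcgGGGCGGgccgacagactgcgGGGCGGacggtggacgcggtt
Atp6v0d1, chr8:105566015-105566314, minus strand: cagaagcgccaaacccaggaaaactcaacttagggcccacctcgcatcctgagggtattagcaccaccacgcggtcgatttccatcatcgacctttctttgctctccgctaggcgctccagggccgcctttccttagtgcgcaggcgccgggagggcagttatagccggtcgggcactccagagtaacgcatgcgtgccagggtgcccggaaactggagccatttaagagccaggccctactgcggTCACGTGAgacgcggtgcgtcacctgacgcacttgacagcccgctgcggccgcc

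Both puberty tables shared 5387 barcodes, with a correlation of 0.997 between their totals per cell, so they hold the same cells. The first was used for puberty and the second as a technical repeat. The other pairs of libraries shared 13 to 24 barcodes. The 3 libraries held 10962454 to 25365324 counts, with medians of 3236 to 4103 counts per cell. Cells were called basal-like, luminal progenitor-like (LP), mature luminal-like (ML) or between LP and ML (Lum Int) from fixed markers and signatures that left out every pump, lysosome and acid-secretion gene considered here. There were 1123 basal, 1753 LP, 225 Lum Int and 2176 ML cells in puberty, 1310, 470, 109 and 789 in estrus, and 1050, 565, 94 and 680 in diestrus. Within 0.1 of a border lay 103 to 300 cells per library. Summed LP markers (8 genes) reached a level, in counts-per-million units (CPM), of 17380 to 37840 in LP cells and 183 to 605 CPM in basal and ML cells. The 5 immune markers summed to at most 1.96 CPM in basal, LP and ML cells. The 5 fibroblast markers summed to 247 to 706 CPM in basal and ML cells against 3.30 to 4.40 CPM in LP cells. In diestrus ML cells 4 of these 5 had no count, and in estrus ML cells 3, so few genes made up those sums. In basal cells and puberty ML cells at most 1 had no count. The 5 erythroid markers summed to 0.49 to 538 CPM, highest in diestrus ML cells. The part of these markers in the differences below was not tested.

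Atp6v1b1, the B1 subunit gene, was a gene of LP cells in all 3 libraries. Its level in LP cells was 373 CPM in puberty, 417 in estrus and 233 in diestrus, scaled by TMM (trimmed mean of M-values). In ML cells it was 4.41, 6.42 and 5.20 CPM in the same order. In basal cells it was 3.48, 2.26 and 1.02 CPM. Lum Int cells lay between, at 148, 186 and 130 CPM, and in each library the order was LP, Lum Int, ML and basal. The LP, Lum Int and ML levels did not overlap within a library. The counting intervals of ML and basal cells overlapped in puberty (3.21 to 5.90 against 1.90 to 5.84 CPM) and not in estrus or diestrus. The fitted log2 difference between LP and ML cells was 6.06 (SE 0.22), or 66.5-fold, and that between LP and basal cells was 7.26 (SE 0.24), or 153-fold. With the class borders moved together at 1/2, so that Lum Int cells joined LP or ML, the log2 difference between LP and ML cells was 4.15.

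**Figure D1:**
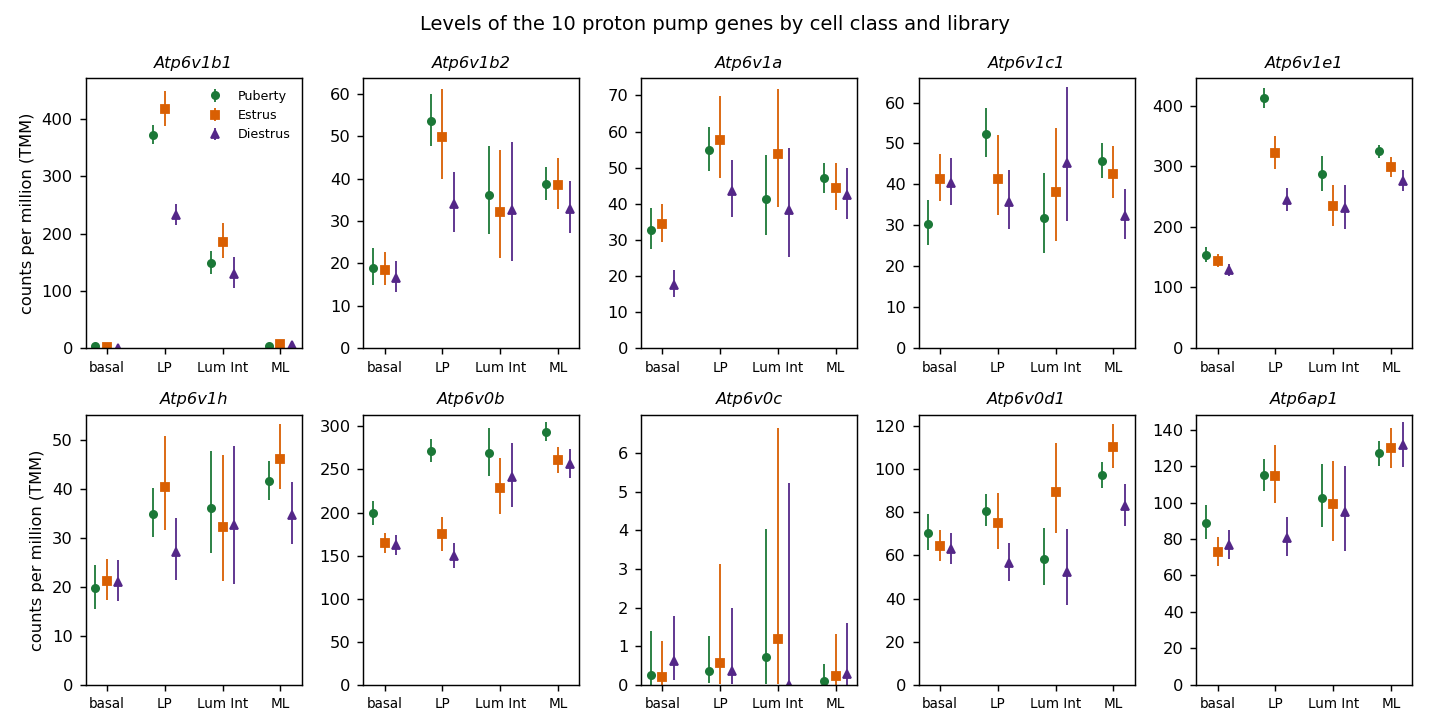
Levels of the 10 pump genes in basal, LP, Lum Int and ML cells, in TMM-scaled CPM, with 1 point per library and bars for exact 95% Poisson intervals (counting error only). Atp6v1b1 reached 233 to 417 CPM in LP cells and at most 6.42 CPM in ML and basal cells, whereas 8 of the others were found in every class and Atp6v0c was near 0.

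At the level of single cells, 58.6% of LP cells in puberty had an Atp6v1b1 count (exact Clopper-Pearson 95% interval 56.3% to 61.0%). The share was 69.4% in estrus and 52.9% in diestrus. The corresponding shares were 1.56%, 2.66% and 1.76% of ML cells and 1.07%, 0.840% and 0.381% of basal cells. Lum Int cells were closer to LP cells, with a count in 49.3% in puberty and 62.4% in estrus. The gene was chosen with its restriction to LP cells known, so basal cells are not an independent negative control. Whether the few counts in basal and ML cells were background or low expression was not tested. The 95% intervals of these ML and basal shares overlapped in puberty and diestrus and not in estrus, where the ML share was the higher. LP cells had median totals of 3722, 3182.5 and 4046 counts, and basal cells 2933, 2539 and 3382. When each cell was thinned to 2000 counts, the LP shares were 40.6%, 54.2% and 33.6%, the ML shares 0.539%, 0.831% and 0.650% and the basal shares 0.806%, 0.526% and 0.350%. The thinned Lum Int shares were 23.3% in puberty and 26.4% in estrus. Thinning left out 160, 81 and 68 LP cells and 254, 360 and 194 basal cells. The Atp6v1b1 level of basal cells was 0.439% to 0.934% of the LP level, and that of ML cells 1.18% to 2.23%. For the 100 genes of the LP signature, which were selected for being high in LP cells, the medians were 2.57% to 3.61% in basal and 2.90% to 4.17% in ML cells. Of these 100 genes, 11 to 27 per library had a lower percentage than Atp6v1b1 in basal cells, and 20 to 37 in ML cells.

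Along the luminal lineage, cells were ordered by position from the ML signature (0) to the LP signature (1) and cut into 5 bins. The Atp6v1b1 level, in CPM without TMM, was higher in each successive bin of each library. In puberty it was 0.932, 5.72, 139, 255 and 323 CPM from the ML end to the LP end. In estrus it was 0, 12.025, 215, 381 and 452 CPM, where the 0 stood for no count in 363 cells and allowed up to 2.43 CPM. In diestrus it was 0.823, 7.68, 137, 218 and 273 CPM. The middle bin, which holds the Lum Int cells, lay below the LP bins and far above the ML bins in each library. Atp6v1e1, which encodes a subunit of the peripheral stalk, stayed between 244 and 337 CPM in all bins and libraries. Cells of the middle bin had median totals of 6196, 6059 and 7084 counts in puberty, estrus and diestrus, above those of LP cells and of ML cells (4700.5, 4153 and 4336.5). The part of depth and of cells captured together in the middle level was not tested, and no test was made between bins.

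**Figure D2:**
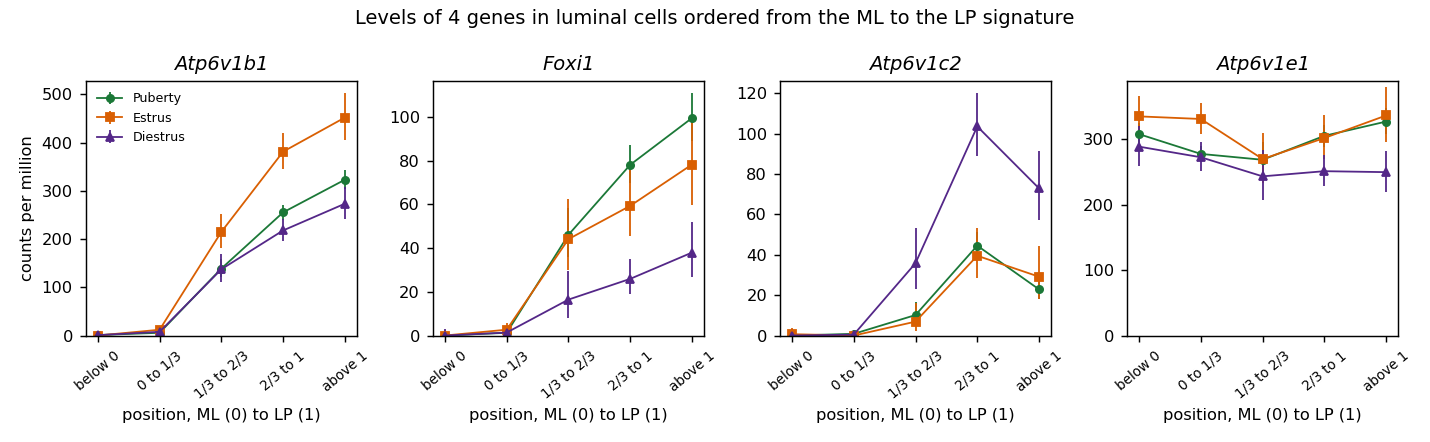
Levels of Atp6v1b1, Foxi1, Atp6v1c2 and Atp6v1e1 in CPM in luminal cells, binned by position from the ML signature (0) to the LP signature (1), with 1 line per library and exact 95% Poisson bars. Atp6v1b1 and Foxi1 were highest in the last bin, Atp6v1c2 was highest in the fourth bin, and Atp6v1e1 was similar throughout.

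The B1 and B2 genes can replace each other in the pump, so the share of B1 in the counts of both was compared between classes. These are 3′ counts with no scaling for length, so the share was read between classes and not as a ratio of proteins. In LP cells Atp6v1b1 made up 87.4%, 89.3% and 87.3% of the B counts in puberty, estrus and diestrus (88.0% ± 1.16, SD over 3 libraries). In Lum Int cells it made up 80.4%, 85.2% and 80.0%. In ML cells the share was 10.2%, 14.3% and 13.6%, and in basal cells 15.6%, 10.9% and 5.81%. The shares of LP and Lum Int cells and those of ML and basal cells did not overlap in any library. The summed level of both genes was 267 to 467 CPM in LP cells, 38.1 to 45.0 CPM in ML cells and 17.6 to 22.4 CPM in basal cells. The B1 counts of LP cells thus came on top of Atp6v1b2 counts that were present in all classes.

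The C subunit, which helps to join V1 to V0, also has a widely used gene, Atp6v1c1, and a second gene, Atp6v1c2. Atp6v1c2 made up 46.7%, 46.4% and 71.5% of the C counts in LP cells in puberty, estrus and diestrus. In ML cells it made up 1.27%, 0.556% and 0.885%. Basal cells lay between, at 33.0%, 21.8% and 17.5%, which sets this gene apart from Atp6v1b1, whose share was low in both other classes. The e subunit, a small protein of V0, had its second gene Atp6v0e2 at 3.48% to 6.34% of counts in ML cells and 0.903% to 3.51% in LP cells.

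**Figure D3:**
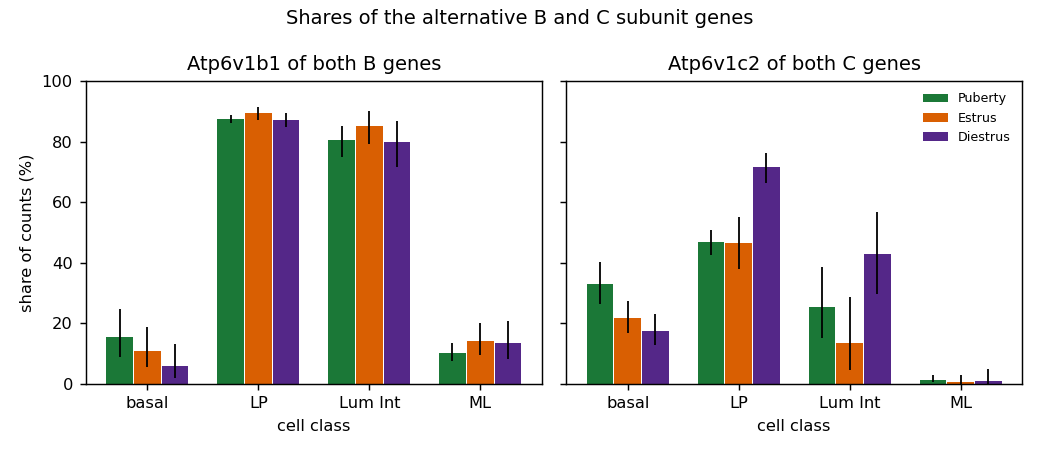
Share of counts (%) of Atp6v1b1 among both B subunit genes and of Atp6v1c2 among both C subunit genes, by cell class, with 1 bar per library and exact Clopper-Pearson 95% intervals. The B1 share was 87.3% to 89.3% in LP cells and at most 15.6% in ML and basal cells, and the Atp6v1c2 share was 46.4% to 71.5% in LP cells.

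The other members were then tested between classes on counts summed over the cells of a class and library, with edgeR's quasi-likelihood test, library as a block and Benjamini-Hochberg adjustment over 11188 genes (threshold 0.01). Of the 9, 8 could be tested, since Atp6v0c did not pass the filter on low counts. None of the 8 was called between LP and ML cells, where 14.1% of all genes tested were called higher in LP cells and 14.2% lower. Of the 8, 3 had an unadjusted p under 0.05, and DESeq2 also called 0. The median log2 difference of the 8 was −0.08, against −0.02 over all genes tested. The 8 log2 differences ran from −0.48 to 0.31, whereas that of Atp6v1b1 was 6.06. With library as a block, the p-values rest on how far class differences varied between 3 libraries, which also differ in stage.

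Among the V1 genes, Atp6v1b2 was at 53.6, 49.8 and 34.0 CPM in LP cells and at 38.7, 38.5 and 32.9 CPM in ML cells, in puberty, estrus and diestrus. It was the higher in LP cells in 3 of 3 libraries, with a log2 difference of 0.31 (95% interval −0.02 to 0.64, edgeR adjusted p = 0.121). Atp6v1a, the A subunit where ATP is split, was at 54.8, 57.6 and 43.6 CPM in LP cells and at 47.0, 44.5 and 42.5 CPM in ML cells. Its log2 difference was 0.21 (−0.17 to 0.59, edgeR adjusted p = 0.367), again with the higher level in LP cells in 3 of 3 libraries. Atp6v1e1 was at 412, 322 and 245 CPM in LP cells and at 324, 298 and 276 CPM in ML cells, so the direction in diestrus was opposite to that in puberty. Its log2 difference was 0.10 (−0.17 to 0.38). Atp6v1c1 had a log2 difference of 0.11 (−0.31 to 0.53) and was at 35.8 to 52.4 CPM in LP cells and 32.3 to 45.7 CPM in ML cells. Atp6v1h, a regulatory subunit of V1, was at 27.2 to 40.3 CPM in LP cells and 34.7 to 46.2 CPM in ML cells, with a log2 difference of −0.27 (−0.61 to 0.08). The direction for Atp6v1c1 and Atp6v1e1 turned to −0.03 without TMM scaling, which moved the median of all genes to −0.15.

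Atp6v0b, Atp6v0d1 and Atp6ap1 were lower in LP than in ML cells in 3 of 3 libraries, as was Atp6v1h, and none of the 4 was called. Atp6v0b, a subunit of the membrane ring, was at 271, 175 and 149 CPM in LP cells and at 294, 261 and 256 CPM in ML cells. Its log2 difference was −0.48 (95% interval −0.78 to −0.17, edgeR adjusted p = 0.0168). Atp6v0d1, which links the ring to the central stalk, was at 80.7, 74.98 and 56.5 CPM in LP cells and at 97.3, 110 and 82.9 CPM in ML cells, with a log2 difference of −0.45 (−0.75 to −0.16, edgeR adjusted p = 0.0187). Atp6ap1, an accessory protein that helps V0 to assemble, had a log2 difference of −0.33 (−0.65 to −0.02, edgeR adjusted p = 0.0852). Neither Atp6v0b nor Atp6v0d1 passed the threshold of 0.01, but both were called lower in LP cells without TMM scaling, and Atp6v0b also without the puberty library or the filter on low counts. Atp6v0c, the main ring subunit, had 0 to 3 counts in each of the 12 sums of class and library. None of the 451 stretches of 50 bases in the last 500 bases of its transcript occurred in the annotated transcripts of another gene, and the reason for the low counts was not tested.

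**Figure D4:**
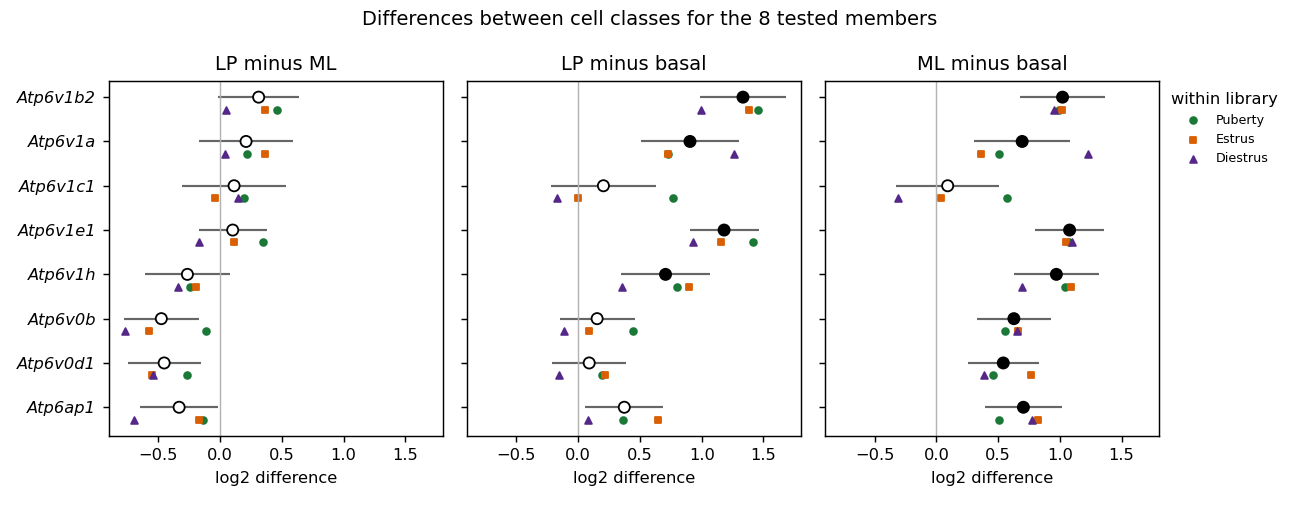
Log2 differences between classes for the 8 tested members, from the edgeR fit (large circles, filled where the adjusted p is under 0.01) with 95% intervals, and within each library (small symbols). LP and ML cells differed by −0.48 to 0.31, and in ML cells 7 of the 8 genes were called higher than in basal cells.

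Against basal cells, 4 of the 8 members were called higher in LP cells and 0 lower, where 15.8% and 17.0% of all genes tested were called. Their median log2 difference was 0.54, against −0.01 over all genes. The 4 were Atp6v1b2 (log2 difference 1.33, edgeR adjusted p = 3.99e-05), Atp6v1e1 (1.18, adjusted p = 1.85e-05), Atp6v1a (0.91, adjusted p = 0.00159) and Atp6v1h (0.71, adjusted p = 0.00425), each higher in 3 of 3 libraries. All 4 encode V1 subunits, but V0 genes outside the members were called higher as well (Atp6v0e, Atp6v0e2 and Tcirg1, below). Atp6v0b and Atp6v0d1, with log2 differences of 0.15 (−0.15 to 0.46) and 0.09 (−0.21 to 0.39), were not called, nor were Atp6ap1 (0.37, 0.06 to 0.69) and Atp6v1c1 (0.20, −0.22 to 0.63). In diestrus Atp6v0b, Atp6v0d1 and Atp6v1c1 were lower in LP than in basal cells. Without TMM scaling, and without the estrus library, only Atp6v1b2 and Atp6v1e1 were called. Of all calls between LP and basal cells, 48.2% were higher in LP cells with TMM and 36.3% without it.

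In ML cells 7 of 8 were called higher than in basal cells and 0 lower, where 21.0% and 22.0% of all genes tested were called. The median log2 difference was 0.70, against 0.02 over all genes. Atp6v1e1 was at 276 to 324 CPM in ML cells and 128 to 154 CPM in basal cells (log2 difference 1.08, edgeR adjusted p = 2.46e-05). Atp6v1b2 followed at 1.02, Atp6v1h at 0.97, Atp6ap1 at 0.71, Atp6v1a at 0.70, Atp6v0b at 0.63 and Atp6v0d1 at 0.54 on the log2 scale. Each was higher in ML cells in 3 of 3 libraries. The call of Atp6v1a held in 4 of the 15 alternatives that kept the threshold of 0.01 (edgeR or DESeq2 adjusted p up to 0.0632), and that of Atp6v0d1 in 9 of 15. Atp6v1c1, at 0.09 (−0.32 to 0.51), was lower in ML than in basal cells in diestrus and was not called. Without the estrus library 3 were called (Atp6v1b2, Atp6v1e1 and Atp6v1h), and without the diestrus library 4 (the same 3 and Atp6ap1). Summed over the 9 members other than Atp6v1b1, basal cells were at 526 to 615 CPM, LP cells at 672 to 1076 CPM and ML cells at 889 to 1016 CPM.

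The other genes of the pump family, 16 in all, included 4 with no count and 11 that could be tested. The 4 with no count were Atp6v1e2, Atp6v0a4, Atp6v0d2 and Atp6ap1l. Atp6v1g3 had at most 2 counts in a sum of class and library and was not tested. Between LP and ML cells 1 of the 11 was called higher and 4 lower, where 14.1% and 14.2% of all genes tested were called. The median log2 difference of the 11 was 0.09. The 1 called higher was Atp6v1c2, at 46.0, 35.8 and 89.7 CPM in LP cells in puberty, estrus and diestrus and at 0.588, 0.238 and 0.289 CPM in ML cells (6, 1 and 1 counts). Its log2 difference was 6.88 (SE 0.47, edgeR adjusted p = 5.99e-07). Of the 4 called lower, Atp6v0e2 had a log2 difference of −2.10, and Atp6v1g1 (−0.58), Atp6v0e (−0.55) and Atp6v1d (−0.55) were closer together. Atp6v1d belongs to the central stalk and Atp6v1g1 to the peripheral stalk. Without the estrus library, and likewise without the diestrus library, 1 of these 4 calls was left. Not called were Tcirg1, the a3 subunit known from osteoclasts, at 0.81 (0.34 to 1.29, edgeR adjusted p = 0.0107), Atp6ap2, the prorenin receptor, at 0.62 (0.19 to 1.05), and Atp6v0a2, another a subunit, at 0.53 (0.11 to 0.95). Of the 15 alternatives at the threshold of 0.01, 7 called Tcirg1 and 3 called Atp6ap2 higher in LP cells, and none called Atp6v0a2. Atp6v1f (0.12, −0.15 to 0.38), Atp6v0a1 (0.09, −0.52 to 0.70) and Atp6v1g2 (−0.33, −1.17 to 0.51) were also not called, and the first 2 of these were below 0 without TMM scaling. For Atp6v1f, 21.1% of the 50-base stretches at the 3′ end also occurred in the annotated gene AC169506.3, so its counts are uncertain. Exons of Atp6v1e1, Atp6v1h, Atp6v0b and Atp6v1c2 overlap those of Slc25a18, Rgs20, Gm12841 and Pdia6 on the opposite strand. Those of Atp6v0a2 and Atp6v1g2 overlap 4930404A12Rik and Nfkbil1 in the same way. Whether the counting used strand is not given in the sources used here.

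Against basal cells, 8 of these 11 genes were called higher in LP cells and 0 lower, with a median log2 difference of 0.84. Of all genes tested, 15.8% and 17.0% were called. The 8 included the V0 genes Atp6v0e, Atp6v0e2 and Tcirg1. Their calls held in 14, 15 and 10 of the 15 alternatives at the threshold of 0.01. In ML cells 5 of the 11 were called higher and 1 lower than in basal cells, against 21.0% and 22.0% of all genes. The 1 lower was Atp6v1c2, at 8.58 to 14.9 CPM in basal cells, with a log2 difference of −4.66 (edgeR adjusted p = 2.17e-05). Atp6v0e2 showed the largest rise of the 5, at 26.6 to 36.2 CPM in ML cells against 0.249 to 2.06 CPM in basal cells (log2 difference 4.85, edgeR adjusted p = 5.73e-07). Atp6v1c2 was thus the lowest in ML cells and Atp6v0e2 the highest there, each in all 3 libraries.

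Assembly and regulatory factors of the pump were a list of 14 genes, of which 9 could be tested. Between LP and ML cells 1 was called higher and 2 lower, where 14.1% and 14.2% of all genes tested were called. Ncoa7, a TLDc domain protein of the kind that binds the pump, was at 70.3, 45.3 and 63.6 CPM in LP cells and at 7.83, 5.71 and 5.20 CPM in ML cells (log2 difference 3.25, edgeR adjusted p = 2.04e-07). It was also at 30.2 to 64.9 CPM in basal cells, so the low class was ML. Tmem199, needed for V0 assembly, had a log2 difference of −1.45 and was at 14.2 to 17.9 CPM in LP cells against 38.3 to 47.9 CPM in ML cells. Tmem9b was called lower as well, at −0.63. With any 1 library left out, 1 gene of the list was called lower.

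The 30 lysosome genes tested have products that work in the compartment that the pump acidifies. Between LP and ML cells 7 were called higher and 6 lower, where 14.1% and 14.2% of all genes tested were called, with a median log2 difference of −0.11. Lipa, the acid lipase, was at 404, 317 and 138 CPM in LP cells and at 5.48, 9.28 and 6.06 CPM in ML cells (log2 difference 5.39). Hexa, a lysosomal glycosidase gene, was called lower, with 1 to 3 counts in LP cells and 32 to 102 counts in ML cells (log2 difference −3.69). Ctsh, a cathepsin, was higher in LP cells by 2.17 on the log2 scale.

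Genes known from acid-secreting cells made up a list of 21, of which 6 had no count and 6 could be tested. The list was written with results of these data known, and so its counts are not independent support. Between LP and ML cells 4 were called higher and 1 lower, where 14.1% and 14.2% of all genes tested were called. Car2, a carbonic anhydrase that supplies protons, was at 424, 335 and 306 CPM in LP cells in puberty, estrus and diestrus and at 4.41, 0.952 and 5.20 CPM in ML cells (log2 difference 6.78, edgeR adjusted p = 2.88e-07). Foxi1, the forkhead factor of intercalated cells, was at 114, 68.3 and 29.7 CPM in LP cells and at 0.881, 1.43 and 0.866 CPM in ML cells (log2 difference 6.26, edgeR adjusted p = 2.66e-07). Both were higher than in basal cells too, with log2 differences of 6.53 and 6.97. Car12, another carbonic anhydrase, had 29, 4 and 3 counts in LP cells and 2, 0 and 1 in ML cells (log2 difference 4.14), and its level was lower in LP than in basal cells (−1.70). Hepacam2 was the 1 called lower, at −2.44, and lost that call without the estrus or the diestrus library, while without the puberty library 2 genes of the list were called higher. The 6 with no count were Dmrt2, Slc4a9, Slc26a4, Oxgr1, Insrr and Bsnd.

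Over the 12 sums of 4 classes and 3 libraries, the genes most like Atp6v1b1 by Pearson correlation of log2(CPM + 1) were Lalba (r = 0.994), Cck (0.993), Hhipl2 (0.991), Ncald (0.990) and Clic6 (0.990), among 4035 other genes at 50 CPM or more in 1 sum. All 5 were genes of the LP signature that placed the cells, and the sums share libraries, so r is a description. Lalba encodes α-lactalbumin of milk and was at 5649, 3778 and 1851 CPM in LP cells in puberty, estrus and diestrus. Foxi1 ranked 20 (r = 0.980) and Car2 ranked 32 (r = 0.967), and both had been barred from the signatures beforehand. Outside the signatures Klk11 (rank 30), Pkib (rank 33) and Tsc22d3 (rank 36) lay beside them. Of the pump genes that reached 50 CPM in 1 sum, Atp6v1b2 came next at rank 340 (r = 0.710), followed by Atp6v1a at rank 408 (r = 0.663). Pump genes that stayed below 50 CPM, among them Atp6v1h, Tcirg1, Atp6v0e2 and Atp6v0a2, were not ranked.

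Between the phases of the cycle, all 10 members were lower in LP cells of the diestrus library than of the estrus library. The median log2 ratio of diestrus to estrus, with 1 CPM added, was −0.40, against −0.01 over all genes, of which 50.7% lay below 0. For 8 of the 10 the counting interval lay below 0, and Atp6v0c rested on 1 count in each library. Atp6v1b1 had the lowest ratio, −0.84 (exact 95% interval −0.997 to −0.689, counting error only), followed by Atp6v1h at −0.55 and Atp6v1b2 at −0.54. In ML cells the median was −0.17 (all genes −0.05) and in basal cells −0.03 (all genes −0.04), and 8 of 10 members lay below 0 in each, with 3 and 2 counting intervals below 0. In basal cells Atp6v1a stood out at −0.93 (−1.36 to −0.58). Each phase had 1 library, so phase and library cannot be told apart and no test was made. The 8 LP markers summed to 31700 CPM in estrus and 17380 CPM in diestrus LP cells, and 21 of 470 and 90 of 565 LP cells were cycling, as judged by counts for 3 or more of 10 proliferation genes. Without cycling cells the median ratio in LP cells was −0.24, with all 10 members still below 0.

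**Figure D5:**
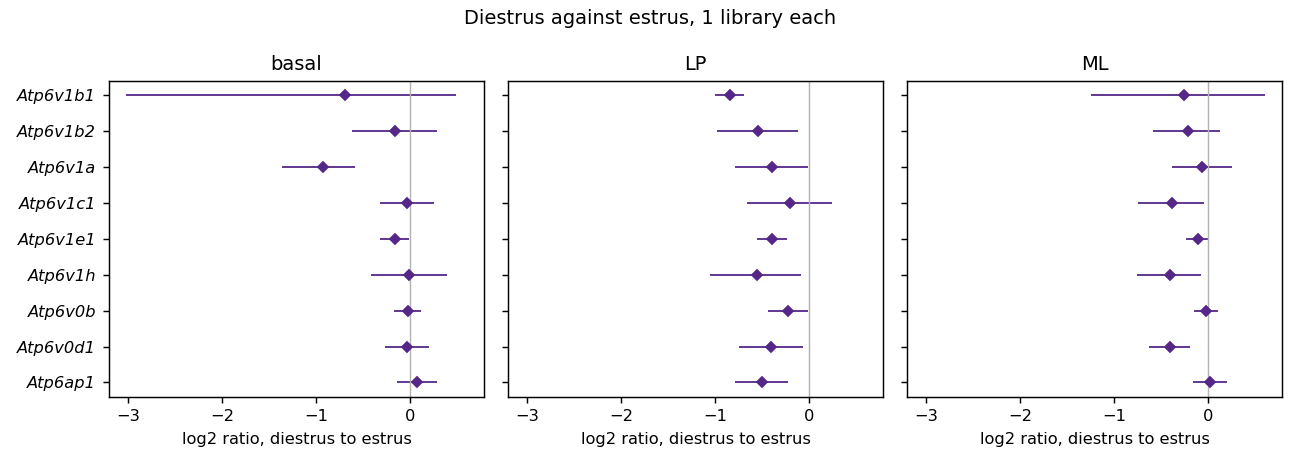
Log2 ratio of diestrus to estrus for 9 members in basal, LP and ML cells, 1 library per phase, with exact 95% intervals that cover counting error only (Atp6v0c, with 0 to 3 counts, is not drawn). In LP cells all 9 points lie left of 0, from −0.84 for Atp6v1b1 to −0.21 for Atp6v1c1.

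In puberty LP cells, 9 of 10 members were above the mean of the adult libraries, with a median log2 ratio of 0.26, against 0.08 over all genes. Without TMM scaling the median was −0.12, with all genes at −0.26, so the sign depended on the scaling. Atp6v0b was the highest at 0.74, and Atp6v1b1 was at 0.20. In basal, LP and ML cells of the second puberty table, the levels of members were 0.739 to 1.04 times those of the first over 25 values of at least 50 counts, with a median of 0.966. In Lum Int cells, the smaller class, 8 such values ran from 0.847 for Atp6v1b1 to 1.30 for Atp6v1h.

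Among LP cells, those with and without an Atp6v1b1 count had similar levels of the rest of the pump in puberty. The other 9 members summed to 1061 CPM in the 1028 cells with a count and 1102 CPM in the 725 cells without. In estrus the values were 890 and 832 CPM, and in diestrus 720 and 606 CPM. Cells with a count had the higher median totals, 4135 against 3183 counts in puberty, 3660 against 2655.5 in estrus and 4515 against 3422 in diestrus, and the part of depth in these values was not tested. The Atp6v1b1 level of cycling LP cells was below that of the others in each library, at 166 against 404 CPM in puberty, 164 against 449 CPM in estrus and 131 against 276 CPM in diestrus. The other 9 members summed to 966 against 1093, 768 against 889 and 562 against 719 CPM in the same cells. Cycling LP cells had median totals of 7546.5, 10488 and 8760 counts against 3548, 3085 and 3553 in the others.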

How the data were processed

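Droplet 3′ RNA sequencing counts were taken from 4 deposited tables, which the authors made with Cell Ranger 2.0 on mm10 without normalization. The deposited gene and barcode lists hold names and other labels and no measurements. The tables hold no doublet calls, and no doublet caller was run. Members and gene lists were chosen with earlier results of these data known. Seed cells exceeded the other lineages by 1 in mean z-score over 8 markers. Signatures held up to 100 genes that were at least 2 times higher in the seeds of 1 lineage in every library, with counts in 10% or more of those seeds. Each cell was placed by the share of signature genes it detected, with borders at 1/3 and 2/3 of the way between seed medians. The pump, assembly, lysosome and acid-secretion genes were left out of the signatures. Counts were summed per class and library and fitted with edgeR 4.0.16 (R 4.3.3) using TMM, filterByExpr, library as a block and the quasi-likelihood test, at an adjusted p under 0.01. DESeq2 1.42.0 was an alternative. Levels are TMM-scaled CPM with exact Poisson intervals, and shares have exact Clopper-Pearson intervals, at 95%. These Poisson and Clopper-Pearson intervals cover counting error only. Intervals of the fitted log2 differences between classes came from the quasi-likelihood test and also hold the variation of those differences between libraries. Other steps used Python 3.11.15, numpy 2.4.6, scipy 1.17.1 and pandas 2.3.3. The puberty library kept the 5387 barcodes of both tables. Positions came from the GENCODE annotation of GRCm38. The fitting code was tested on simulated data.

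Genes were named by a rule. It took all members, all other pump genes tested, the 4 called genes per further list with the largest differences between LP and ML cells, and the 5 genes most like Atp6v1b1. Of the lysosome genes that the rule took, 1 is not reported here. The 6 genes of the acid-secreting cell list and the 4 pump genes with no count, and Atp6v1g3, Klk11, Pkib and Tsc22d3, were named after their values were seen.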

Additional observations from a re-analysis of the deposited data

Results flagged for a closer look

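None of the differences of effect given first was tested, since each stage had 1 library. Between puberty and diestrus, the log2 ratio of Atp6v1c1 was 0.552 in LP cells (302 and 100 counts) and −0.414 in basal cells (122 and 198 counts), with counting intervals on either side of 0. Atp6v1e1 had a log2 ratio of LP to ML cells of 0.346 in puberty and −0.173 in diestrus. Atp6v1c2 had a log2 ratio of puberty to diestrus of 0.799 in basal cells and −0.964 in LP cells. Between diestrus and estrus, Atp6v1f was at 0.328 in basal and −0.198 in LP cells, and Atp6v1g1 at 0.13 in basal and −0.149 in LP cells.

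Cells between basal and luminal (mixed) entered none of the comparisons. An Atp6v1b1 count was found in 21.9% of 96 mixed cells in puberty (exact 95% interval 14.1% to 31.5%) and in 25% of 32 in estrus (11.5% to 43.4%), above the 1.07% and 0.840% of basal cells. In diestrus it was 11.9% of 42 (3.98% to 25.6%). Mixed cells had median totals of 6835, 5878.5 and 5212.5 counts, more than any of the basal, LP and ML classes, and the part of cells captured together was not tested.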

How the results depend on the processing

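Of 181 alternative values of the 13 summary results, 158 were scored as the same, and of 1296 for single genes and lists 1147 were. Single genes had to keep their direction and side of the threshold, and levels, shares and ratios had to stay within the spread. Counts of called genes only had to stay within a fixed factor in size, so genes could change side. Members called higher in ML than in basal cells, 7 in the main fit and 5 without TMM, were scored as the same. Members called lower in LP than in ML cells numbered 2 without TMM, 1 without the filter on low counts, 2 at an adjusted p under 0.05 and 0 to 1 with 1 library left out. Members called higher in LP than in basal cells numbered 2 without TMM, 2 without the library block and 2 to 3 with 1 library left out, and those higher in ML than in basal cells 3 without the block and 3 to 6. The 4 further lists had 26 calls between LP and ML cells, 15 without the block and 17 to 19 with 1 library left out. Of all genes tested in the main fit, 14.1% were called higher in LP than in ML cells and 14.2% lower. No paired analysis was possible because the groups share fewer than 2 replicate numbers in the labels. The library block pairs classes of 1 library by construction.

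The Atp6v1b1 log2 difference LP minus ML was 4.145 with the borders at 1/2, 7.07 in marker seeds and 5.795 to 6.237 with 1 library left out. The Atp6v1b1 log2 difference LP minus basal was 6.154 with the borders at 1/2 and 7.033 to 7.642 with 1 library left out. The mean share of LP cells with an Atp6v1b1 count, 60.3%, was 42.8% after thinning and 55.8% to 64.0% with 1 library left out, and the B1 share 87.3% to 88.4%. The median log2 ratio of diestrus to estrus in LP cells was −0.296 in seeds and −0.242 without cycling cells. The median ratio of puberty to adult turned to −0.124 without TMM and was 0.156 with the second table, 0.099 without cycling cells and 0.141 without the 5% of cells with the highest totals.

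Small differences changed sign. Between LP and ML cells, without TMM, these were Atp6v1c1 (−0.028), Atp6v1e1 (−0.031), Atp6v1f (−0.014) and Atp6v0a1 (−0.057). Atp6v0a1 was also at −0.011 with the borders at 1/2 and −0.013 in seeds. Between LP and basal cells, Atp6v0b was at −0.037, Atp6v0d1 at −0.1 and Atp6v0a2 at −0.028 without TMM, and Atp6v0a2 at −0.042 in seeds. In cells with 1000 genes and under 10% mitochondrial counts Atp6v0d1 was at −0.02 and Atp6v0a2 at −0.005. Between ML and basal cells, Atp6v1c1 was at −0.063 with that limit on cells and −0.009 without the highest totals, and Tcirg1 at −0.019 in seeds and −0.004 without the highest totals. With each library left out in turn, the ranges were −0.021 to 0.233 for Atp6v1e1 and −0.077 to 0.186 for Atp6v0a1 (LP minus ML), −0.047 to 0.406 for Atp6v1c1 and −0.043 to 0.211 for Atp6v0d1 (LP minus basal), and −0.099 to 0.3 for Atp6v1c1 and −0.125 to 0.264 for Tcirg1 (ML minus basal). None of these was called in either direction, and the cause was not tested. With 1 library per stage, depth sets the counting intervals but differences between animals cannot be estimated.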
